A study of Mus musculus with 36 samples.

Results

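Inhibitory receptors are surface proteins that dampen T cell activation, and the 8 described here are Lag3, Pdcd1 (PD-1), Ctla4, Btla, Havcr2 (TIM-3), Tigit, Cd244a (2B4) and Cd160. They were chosen by gene name as 8 of the 56748 genes in the deposited table, and all 8 were found there. Their mRNA was followed through 3 conditions of mouse CD4+ T cells, which were naive cells taken directly from the spleen, conventional T cells (Tconv) recovered from bone marrow allograft hosts, and Tconv recovered from hosts that had also received regulatory T cells (Treg). Each condition was sequenced in WT and KO cells of 2 mutant lines, which gave 12 groups and 35 libraries, with 3 libraries in each group except HP1γ KO Tconv with Treg, which had 2 because 1 library was left out for the quality reasons given in the study's methods.

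The HP1α line carried a germline deletion of the gene for HP1α, a chromatin protein that binds methylated histone H3, made with a CMV-cre transgene, and its WT cells came from littermates. In the HP1γ line the floxed gene of the related protein HP1γ was removed by Cd4-cre, which acts in all αβ T cells from their development in the thymus onwards, and its WT cells were floxed littermates without Cre. Both lines were kept on a mixed 129/Sv and C57BL/6 background. Every host was a lethally irradiated C57BL/6 mouse given equal parts of C57BL/6 and B6D2F1 bone marrow, together with naive CD4+ T cells of the genotype under study, and hosts of the Treg groups also received WT Treg expanded in culture. Tconv were sorted from the host spleen as CD4+ cells expressing the T cell receptor chain Vβ6, which recognises a superantigen of the semi-allogeneic marrow, and Treg carrying the Thy1.1 reporter were gated out. The reporter marks the transferred Treg and does not remove transferred Tconv that began to express Foxp3 themselves. The comparisons ask which receptors rise in the host, whether Treg change them, and whether the loss of HP1α or HP1γ alters either response.

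Naive CD4+ T cells carry few of these receptors, apart from Btla. Stimulation through the T cell receptor induces them, and cells that keep meeting antigen express several together, a pattern best known from exhausted T cells in chronic infection and tumours. Lag3 encodes a CD4-related receptor for MHC class II and other ligands. Pdcd1, Ctla4 and Btla encode members of the CD28 family or its close relatives. PD-1 binds PD-L1 and PD-L2, CTLA-4 competes with CD28 for CD80 and CD86, and BTLA binds HVEM, which is also a ligand of CD160. Havcr2 encodes a TIM family receptor, Tigit encodes a receptor for the nectin-like protein PVR, and Cd244a encodes a SLAM family receptor for CD48. Treg themselves express Ctla4, Tigit and, when activated, Lag3.

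All 8 genes code for proteins and lie on 5 chromosomes of the GRCm39 build. Lag3 lies at chr6:124881320-124888765, Pdcd1 at chr1:93966027-93980312, Ctla4 at chr1:60926159-60954991, Cd244a at chr1:171386708-171437315, Btla at chr16:45044475-45078033, Tigit at chr16:43469100-43484509, Havcr2 at chr11:46345673-46374149 and Cd160 at chr3:96706079-96736667. RefSeq start-site windows on the older GRCm38.p6 build were found for 7 of the 8 genes, all but Lag3. The 250 bases before the start site are shown, 5′ to 3′, for the 4 receptors called beside Lag3 in the difference between the lines given further on (Pdcd1, Ctla4, Havcr2 and Tigit) and for Btla, which was not called there. Capitals mark matches on either strand to letters bound by factors known to act on such genes, which were the NFAT core GGAAA, the AP-1 site TGANTCA, the NR4A motif AAGGTCA, the RUNX site TGTGGT and the T-box core GTGTGA, and none of these overlapped another in the windows shown.
Pdcd1, chr1:94052554-94052803, minus strand: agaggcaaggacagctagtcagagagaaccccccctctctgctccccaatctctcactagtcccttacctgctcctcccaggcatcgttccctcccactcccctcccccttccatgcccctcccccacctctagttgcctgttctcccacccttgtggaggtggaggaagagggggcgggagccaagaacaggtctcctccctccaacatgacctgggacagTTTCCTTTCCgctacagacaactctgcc
Ctla4, chr1:60908775-60909024, plus strand: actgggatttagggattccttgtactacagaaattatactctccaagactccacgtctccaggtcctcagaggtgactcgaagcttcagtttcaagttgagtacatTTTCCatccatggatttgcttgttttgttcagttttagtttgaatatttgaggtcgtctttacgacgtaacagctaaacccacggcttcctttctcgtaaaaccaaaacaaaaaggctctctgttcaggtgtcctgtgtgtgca
Btla, chr16:45224087-45224336, plus strand: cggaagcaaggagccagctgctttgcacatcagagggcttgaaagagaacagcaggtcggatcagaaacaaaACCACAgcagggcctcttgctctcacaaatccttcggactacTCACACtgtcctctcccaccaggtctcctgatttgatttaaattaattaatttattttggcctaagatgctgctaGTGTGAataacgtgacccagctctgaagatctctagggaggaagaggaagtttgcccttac
Havcr2, chr11:46454681-46454930, plus strand: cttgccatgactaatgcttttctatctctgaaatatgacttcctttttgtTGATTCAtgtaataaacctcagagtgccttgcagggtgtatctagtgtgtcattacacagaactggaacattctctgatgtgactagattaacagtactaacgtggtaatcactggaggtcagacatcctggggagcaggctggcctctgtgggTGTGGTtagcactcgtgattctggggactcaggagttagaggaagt
Tigit, chr16:43664185-43664434, minus strand: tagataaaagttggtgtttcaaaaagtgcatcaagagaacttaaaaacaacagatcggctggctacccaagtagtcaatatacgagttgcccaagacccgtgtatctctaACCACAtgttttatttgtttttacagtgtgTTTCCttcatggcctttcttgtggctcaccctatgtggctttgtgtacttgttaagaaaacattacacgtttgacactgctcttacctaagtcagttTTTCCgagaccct
The NFAT core occurred 2 times in the Pdcd1 window, where both copies stand side by side near the start site, 2 times in the Tigit window and 1 time in the Ctla4 window. It was found in 55.6% of all 32851 RefSeq windows of this length, so that it is common. An AP-1 match was found in the Havcr2 window, against 6.75% of all windows. The RUNX letters occurred 1 time each in the windows of Havcr2, Tigit and Btla, against 14.05% of all windows. Btla was the only window of the 5 with the T-box core, which it held 2 times and which 12.3% of all windows held. Among receptors whose windows are not shown, those of Cd160 held the T-box core 1 time each and that of Cd244a held an AP-1 match. The NR4A motif, present in 4.08% of all windows, was in none of the 5. These windows held between 2 (Havcr2) and 7 (Ctla4) CpG pairs, against a median of 6.

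Libraries held 37029477 to 63042165 estimated read counts over 20158 to 23340 detected genes, so that 3 counts, taken as the detection floor, corresponded to 0.0446 to 0.0816 CPM. Levels are given in CPM, read counts scaled to a common library size, and include counting error and the amplification of picogram amounts of RNA. Cbx5, the gene for HP1α, was lower in every KO library than in every WT library of the same condition in 3 of 3 conditions of the HP1α line, with medians of 15.7 and 28.4 CPM, and Cbx3, the gene for HP1γ, was lower in 3 of 3 conditions of the HP1γ line, with medians of 66.9 and 102.7 CPM. All 8 markers of CD4+ T cells were at 1 CPM or more in all 12 groups, and Trbv19, the Vβ6 segment, was at 35.8 to 69.6 CPM in naive cells and at 309.9 to 578.9 CPM in the sorted Tconv. Ncr1, which defines NK cells, stayed at or below 1.22 CPM. The list of 6 CD8 T and NK cell markers that holds Ncr1 summed to as much as 77.1 CPM in Treg-exposed HP1α WT Tconv.

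Compared per kilobase of exon, so that gene length does not enter, Btla was the highest of the 8 in all 4 naive groups, at 18.1 to 25.3 CPM per kilobase, and Ctla4 came next, at 7.22 to 16.4. In Tconv from hosts without Treg the order changed, with Ctla4 in the lead in all 4 groups at 27.4 to 87.8 CPM per kilobase and Pdcd1 and Tigit behind it. In Treg-exposed HP1α WT Tconv, Pdcd1 (218 CPM per kilobase) stood above Ctla4 (144) and Tigit (100.02), and the libraries of Pdcd1 ranged from 266 to 548 CPM, so the order of these 3 is less certain than the gap to Lag3 at 25.5. Cd244a was the lowest in 7 of the 8 groups of host Tconv.

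**Figure D1:**
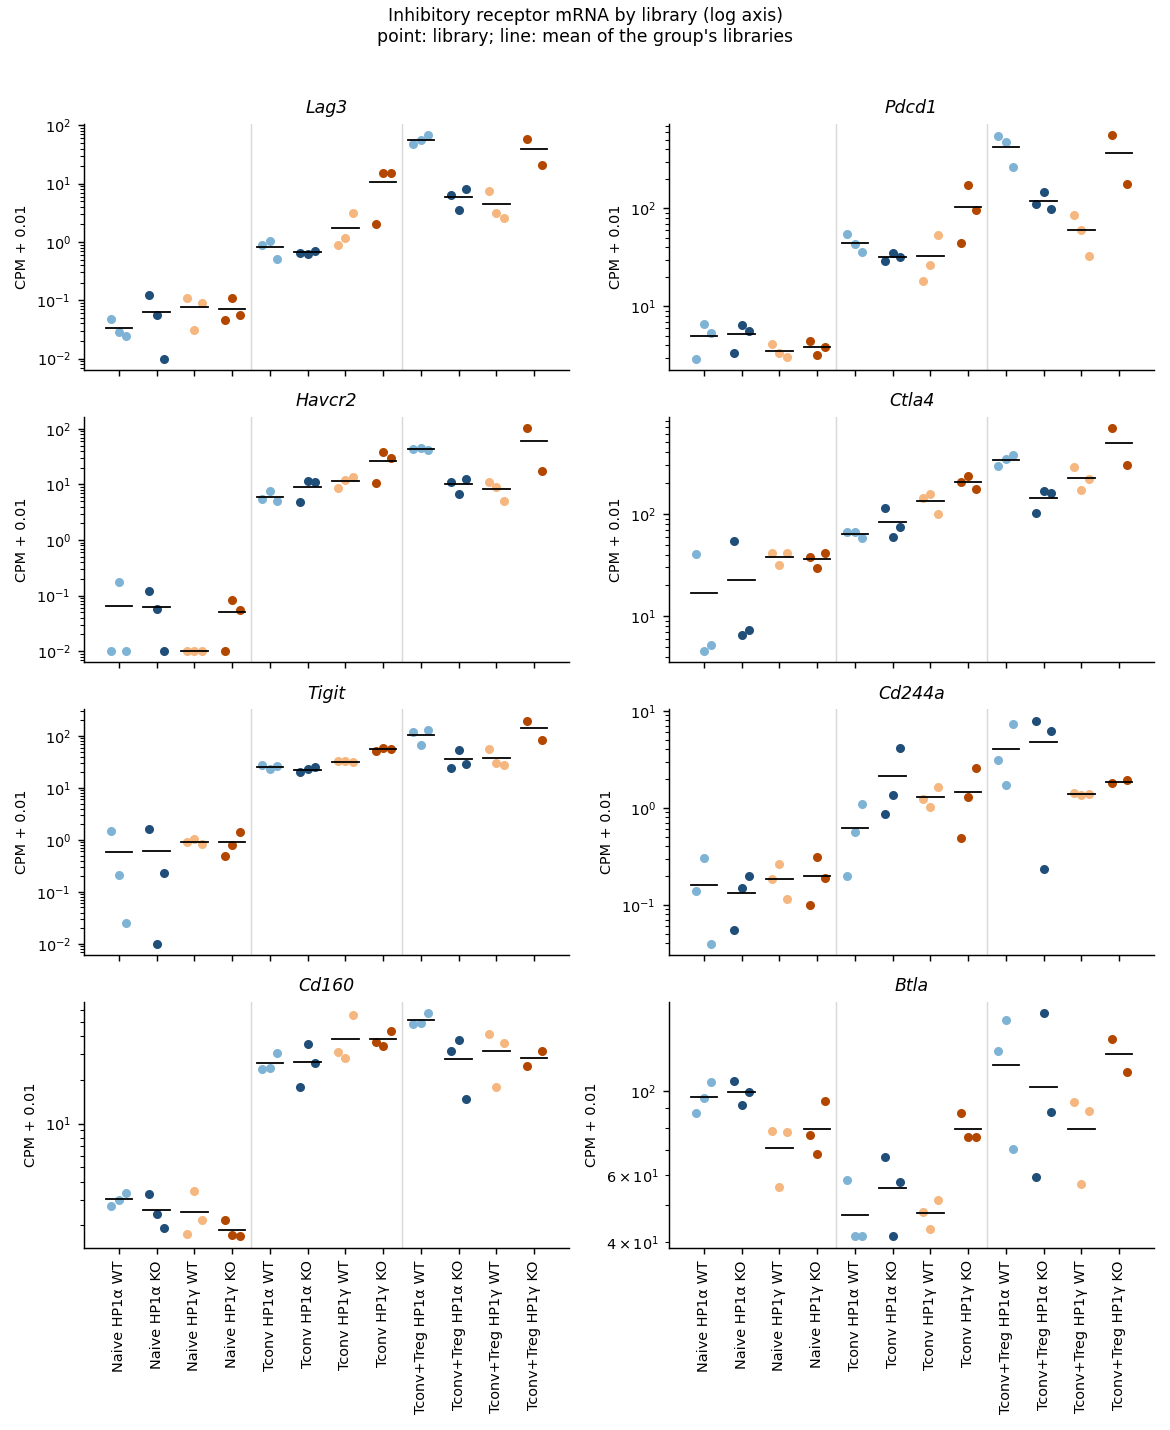
CPM of the 8 receptors in each of the 35 libraries, on a log axis with 0.01 added so that zeros can be drawn; points are libraries and black lines are means of the 2 or 3 libraries of a group. Pale and dark blue are HP1α WT and KO, pale and dark orange are HP1γ WT and KO, and Lag3 in Treg-exposed cells is high in HP1α WT (47.1 to 67.5 CPM) and in HP1γ KO (21.2 and 58.9 CPM).

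To ask which receptors are induced in the host, Tconv from hosts without Treg were compared with naive cells of the same genotype. A gene was called when edgeR gave a Benjamini-Hochberg adjusted p under 0.05 together with a log2 fold change of more than 1 in absolute value. Of the 8 receptors, 6 were called in HP1α WT cells (5 higher and Btla lower), 6 higher in HP1α KO, 7 higher in HP1γ WT and 7 higher in HP1γ KO, where 23.1%, 19.7%, 23.5% and 23.1% of all tested genes were called in either direction and 12.9%, 12.4%, 15.0% and 15.7% were higher. Their median log2 fold changes were 3.14, 3.52, 3.58 and 4.58, against medians between -0.04 and 0.02 over all tested genes.

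Lag3 was at 0.0149 to 0.037 CPM in the 3 naive HP1α WT libraries, which is under the floor of 3 counts in each, and at 0.871, 1.01 and 0.51 CPM in replicates 1 to 3 of HP1α WT Tconv. Its log2 fold change was 4.99 ± 0.62 (SE; edgeR adjusted p = 0.00031). In HP1γ KO cells the rise was 7.51 ± 1.04 (edgeR adjusted p = 0.00164), from 0.0357, 0.0999 and 0.0451 CPM to 2.04, 15.4 and 15 CPM. Every naive library of the 4 genotypes lay below every Tconv library of its genotype for this gene.

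Havcr2 was close to undetected in naive cells, with 9, 7, 0 and 5 counts summed over the 3 naive libraries of HP1α WT, HP1α KO, HP1γ WT and HP1γ KO. It rose by 6.79 ± 0.91 on the log2 scale in HP1α WT (edgeR adjusted p = 0.00061), to 5.36, 7.71 and 4.94 CPM, and by 7.44 ± 0.78 in HP1α KO (edgeR adjusted p = 0.00035). All 9 naive HP1α WT counts came from replicate 2. Leaving out 1 library moved the WT value between 6.14 and 11.2, called each time, so the size of this rise is uncertain. Where no naive read was counted, in HP1γ WT, Havcr2 stood at 8.46, 11.8 and 13.8 CPM in Tconv, against floors of 0.0627 to 0.0786 CPM in the naive libraries. TIM-3 is known as a receptor of differentiated Th1 cells.

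Pdcd1 and Ctla4 were already expressed in naive cells. Pdcd1 went from 2.92, 6.65 and 5.39 CPM in naive HP1α WT cells to 54.7, 42.8 and 35.6 CPM in Tconv, a log2 fold change of 3.16 ± 0.31 (edgeR adjusted p = 0.00011), and the other genotypes had values of 2.65, 3.21 and 4.78, all called. Ctla4 differed between naive libraries of the HP1α line, where replicate 1 of WT and of KO stood at 40.7 and 53.8 CPM and the 4 others at 4.55 to 7.27 CPM, while the 6 naive HP1γ libraries lay at 29.3 to 41.6 CPM. In HP1α WT Tconv it was at 66.7, 66 and 58.7 CPM, above all naive libraries, but the fold change of 1.93 ± 0.92 was not called (edgeR adjusted p = 0.15). Without naive replicate 1 the difference was called, at 3.71 in WT and 3.58 in KO. In the HP1γ line it rose by 1.80 ± 0.22 in WT and 2.52 ± 0.17 in KO. Replicate 1 of naive HP1α WT and KO also had the highest Tigit of these 6 libraries, 1.5 and 1.59 CPM against at most 0.224 CPM, and its Foxp3 was 8.19 and 10.7 CPM against 6.58 to 8.42 CPM. The part of this library pair in the Ctla4 and Tigit results beyond the values given was not tested.

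Tigit rose in all 4 genotypes, by 5.54 ± 1.12, 5.24 ± 1.10, 5.13 ± 0.20 and 5.99 ± 0.35 on the log2 scale in HP1α WT, HP1α KO, HP1γ WT and HP1γ KO (edgeR adjusted p = 0.0095, 0.01, 3.8e-06 and 1.3e-05). Its level in HP1γ WT went from 0.891, 1.05 and 0.812 CPM in naive cells to 32.8, 32.5 and 31.5 CPM, a narrow spread in both groups. In HP1α WT the Tigit call was lost without naive replicate 2 (5.14), and in HP1α KO it was lost without the filter on low counts (5.25, edgeR adjusted p = 0.065). Cd160 rose by 3.12 ± 0.18, 3.403 ± 0.321, 3.96 ± 0.38 and 4.38 ± 0.18, and was at 23.8, 24 and 30.4 CPM in HP1α WT Tconv against 2.72, 3 and 3.34 CPM in naive cells. CD160 is best known from cytotoxic lymphocytes. Cd244a was called in 3 of the 4 genotypes, by 4.08, 2.83 and 2.96, but stayed at or below 4.16 CPM in every one of these Tconv libraries, and in HP1α WT its libraries (0.19, 0.548 and 1.07 CPM) overlapped those of naive cells.

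Btla went the other way. It stood at 87.6, 95.8 and 106 CPM in naive HP1α WT cells and at 58.4, 41.4 and 41.4 CPM in Tconv, and fell by 1.03 ± 0.15 on the log2 scale (edgeR adjusted p = 0.00077), where 10.2% of tested genes were lower. This call sat at the fold threshold and was lost without Tconv replicate 2 or 3 or naive replicate 3, where the value was -0.94, -0.94 and -0.96. In HP1γ KO the groups overlapped, with 76.3, 68.1 and 93.9 CPM in naive cells and 87.3, 75.5 and 75.7 CPM in Tconv.

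**Figure D2:**
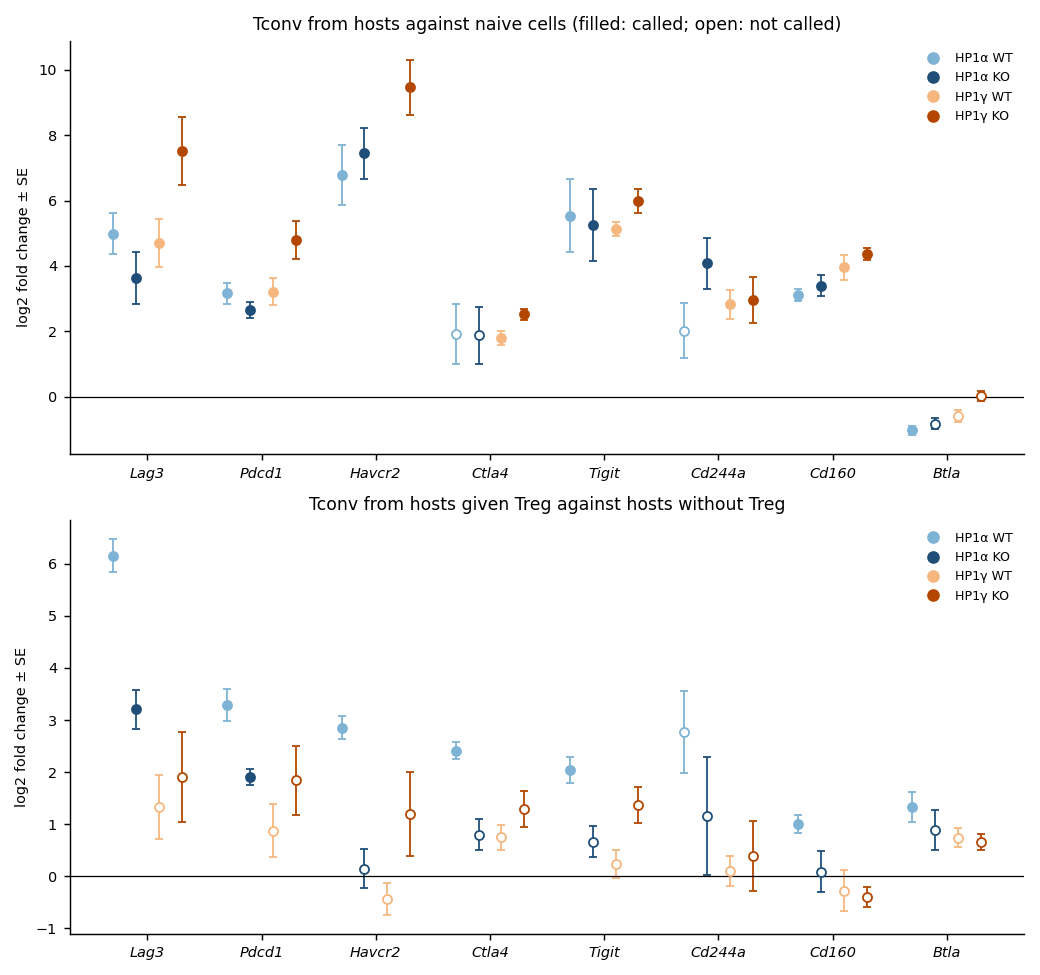
Log2 fold changes with standard errors of the 8 receptors in 4 genotypes, for Tconv against naive cells in the upper panel and for Tconv from hosts with Treg against hosts without Treg in the lower panel; filled points were called by edgeR. Havcr2 in HP1γ WT has no point in the upper panel because its naive libraries were at 0, and in the lower panel the filled points are 7 of HP1α WT and 2 of HP1α KO.

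The effect of Treg was measured as Tconv from hosts that received Treg against Tconv from hosts that did not. In HP1α WT cells 7 of the 8 receptors rose, all but Cd244a, where 5.96% of all tested genes were called in either direction and 3.54% were higher. All 8 had every Treg library above every library without Treg, as did 15.7% of tested genes. The members' median log2 fold change was 2.59, against 0.03 over all genes.

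Lag3 had the largest change of the 8. It was at 0.871, 1.01 and 0.51 CPM without Treg and at 47.1, 55.1 and 67.5 CPM with Treg, a log2 fold change of 6.15 ± 0.32 (edgeR adjusted p = 0.00031). Pdcd1 rose by 3.29 ± 0.31 (edgeR adjusted p = 0.0019), from 35.6 to 54.7 CPM to 548, 472 and 266 CPM. Havcr2 was at 43.1, 44.5 and 41.3 CPM with Treg against 4.94 to 7.71 CPM without, a rise of 2.85 ± 0.22 (edgeR adjusted p = 0.00092). The 3 Treg libraries lay close together for this gene.

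Ctla4 rose by 2.42 ± 0.16 to 296, 340 and 372 CPM (edgeR adjusted p = 0.00052) and Tigit by 2.04 ± 0.26 to 118, 68.3 and 128 CPM (edgeR adjusted p = 0.0051). The Tigit call was lost when all libraries of the line shared 1 fit (2.05, edgeR adjusted p = 0.075). Btla, which had fallen in the host, stood at 127, 154 and 70.3 CPM with Treg, a rise of 1.33 ± 0.29 (edgeR adjusted p = 0.037). Leaving out any library but Treg replicate 3 ended the Btla call, and the value was lowest, at 1.08, without Treg replicate 2. Cd160 was at 48, 49.3 and 57.3 CPM, and its rise of 1.003 ± 0.171 lay at the threshold and was lost without replicate 1 or 2 of the group without Treg or replicate 3 of the group with Treg. Cd244a, at 3.09, 1.72 and 7.35 CPM with Treg, gave 2.77 ± 0.79 (edgeR adjusted p = 0.084) and was called by DESeq2, which called 6.2% of tested genes. DESeq2 ran without the filter on low counts, so its shares are over more genes than those of edgeR, here 28290 against 15627. Shares of the tools are thus not on the same footing, here and below.

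In HP1α KO cells 2 of the 8 receptors rose with Treg, where 0.44% of tested genes were called and 0.18% were higher. Lag3 went from 0.644, 0.623 and 0.699 CPM to 6.44, 3.48 and 8.14 CPM, a rise of 3.20 ± 0.37 (edgeR adjusted p = 0.023), and Pdcd1 from 29, 35 and 31.7 CPM to 112, 147 and 98.8 CPM, a rise of 1.91 ± 0.16 (edgeR adjusted p = 0.0075). Havcr2 was at 4.84, 11.6 and 11 CPM without Treg and 10.9, 6.61 and 12.6 CPM with Treg, and the groups overlapped. Those of Ctla4, Tigit, Cd244a, Cd160 and Btla overlapped as well. The Lag3 call was lost without any of the 3 Tconv libraries and without Treg replicate 1 or 3, and the Pdcd1 call without Tconv replicate 3, which left no receptor called. The difference between the Treg effects of KO and WT cells was tested as an interaction, and 1 of the 8 receptors, Lag3, was called, at -2.95 ± 0.46 (edgeR adjusted p = 0.037), where 0.139% of tested genes were called and 0.0581% were lower. Havcr2 (-2.71 ± 0.46, edgeR adjusted p = 0.056), Ctla4 (-1.61 ± 0.33, edgeR adjusted p = 0.089) and Pdcd1 (-1.38 ± 0.35, edgeR adjusted p = 0.17) were not called, and DESeq2 called all 4 and 1.13% of tested genes. The Lag3 interaction was lost without replicate 1, 2 or 3 of WT Tconv, without replicate 1, 2 or 3 of KO Tconv and without Treg-exposed KO replicate 1, which left no receptor called except without KO Tconv replicate 1, where Havcr2 was called. Without Treg-exposed WT replicate 3, 3 receptors were called.

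Neither genotype of the HP1γ line had a receptor called for the Treg effect by edgeR. The paper states that Treg did not effectively repress the response of WT cells at the Tconv to Treg ratio of its HP1γ experiment. In HP1γ WT cells 2 of the 8 had an unadjusted edgeR p under 0.05, as did 1095 of 15903 tested genes. DESeq2 called 0 of the 8, where edgeR called 0.0126% and DESeq2 0.197% of all tested genes. Lag3 was at 0.884, 1.15 and 3.18 CPM without Treg and at 7.45, 3.11 and 2.61 CPM with Treg, so the groups overlapped. Those of Pdcd1, Havcr2, Tigit, Cd244a and Cd160 overlapped too, and Ctla4 and Btla were higher with Treg in every library, as were 6.35% of tested genes, by less than 1 on the log2 scale. In HP1γ KO cells edgeR called 0.0% of tested genes. There 4 of the 8 receptors had an unadjusted edgeR p under 0.05, as did 1294 of 16991 tested genes. DESeq2 called Ctla4 and Tigit, where it called 0.909% of tested genes. Ctla4 was at 206, 232 and 175 CPM without Treg and at 690 and 303 CPM with Treg, and Tigit at 52.4, 58.1 and 55.2 CPM without and at 199 and 82.6 CPM with Treg. Lag3 stood at 2.04 to 15.4 CPM without and 58.9 and 21.2 CPM with Treg (1.91, edgeR adjusted p = 0.69). Pdcd1 stood at 44.6 to 172 CPM without and 557 and 179 CPM with Treg (1.84, edgeR adjusted p = 0.63). Btla was also higher, at 137 and 112 CPM against 75.5 to 87.3 CPM. Cd160 was lower with Treg, at 25.0 and 31.7 CPM against 33.9 to 43.2 CPM. Without Treg-exposed replicate 2, Tigit was called by edgeR as well, in a fit where replicate 1 stands alone and is assumed to vary like the libraries without Treg. Havcr2 rested on replicate 1 (104 CPM), since replicate 2 (17.4 CPM) lay inside the range of the group without Treg. The interaction of genotype and Treg in this line called 0 receptors and 0.0% of tested genes by edgeR. DESeq2 called 0 receptors and 0.0469% of tested genes. An unadjusted edgeR p under 0.05 was found for 1 receptor and for 667 of 17833 tested genes.

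The Treg effect of WT cells was set between the lines in a test of the difference. Lag3 differed by 4.81 ± 0.73 on the log2 scale, Havcr2 by 3.28 ± 0.40, Tigit by 1.79 ± 0.39 and Ctla4 by 1.65 ± 0.29, all with the higher effect in HP1α WT cells (edgeR adjusted p = 0.0093, 0.0038, 0.041 and 0.017). These are 4 of the 8 receptors, against 1.56% of tested genes in either direction and 0.701% higher. Leaving out 1 library ended the Tigit call in 10 of 12 fits, all but those without Treg-exposed replicate 2 of HP1α WT or replicate 1 of HP1γ WT. The count was 2 without replicate 3 of HP1α WT Tconv or without replicate 2 of HP1γ WT Tconv, and Lag3 and Havcr2 were called in all 12. With all libraries of both lines in 1 fit the calls of Ctla4 and Tigit were lost (edgeR adjusted p = 0.34 and 0.30) and Pdcd1 was called (2.40, edgeR adjusted p = 0.032). For the HP1α line the paper describes a set of genes as induced by activation in WT cells and strongly inhibited by Treg. That set was chosen as higher and more accessible in Treg-exposed KO than WT cells, a choice that favours low WT levels with Treg. Its statement on the HP1γ experiment concerns the allogeneic response and is another measure. Cells of both lines in this test are WT. The line, the experiment, the littermate background and the degree of suppression by Treg cannot be told apart in this difference.

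The effect of each deletion was then measured in Treg-exposed Tconv as KO against WT. These comparisons share the Treg-exposed WT libraries with the Treg effects above and are not independent of them. In the HP1α line 2 of the 8 receptors fell, Lag3 and Havcr2, where 0.123% of tested genes were called and 0.08% were lower, and 6 of the 8 had every KO library below every WT library, as did 9.85% of tested genes. Lag3 was at 6.44, 3.48 and 8.14 CPM in KO against 47.1, 55.1 and 67.5 CPM in WT, and fell by 3.25 ± 0.34 (edgeR adjusted p = 0.033). Havcr2 was at 10.9, 6.61 and 12.6 CPM against 43.1, 44.5 and 41.3 CPM, and fell by 2.12 ± 0.26 (edgeR adjusted p = 0.043).

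Pdcd1 (112, 147 and 98.8 CPM in KO against 548, 472 and 266 CPM in WT) gave -1.86 ± 0.29 and Ctla4 (102, 168 and 160 CPM against 296, 340 and 372 CPM) gave -1.25 ± 0.23, neither called by edgeR (adjusted p = 0.075 and 0.087). Tigit, at 24.2, 54.1 and 28.4 CPM in KO against 118, 68.3 and 128 CPM in WT, gave -1.58 ± 0.37 (edgeR adjusted p = 0.15). DESeq2 called 5 receptors, Lag3, Pdcd1, Havcr2, Ctla4 and Tigit, where it called 2.49% of 28595 genes. That set was not filtered for low counts, unlike the 16256 genes tested by edgeR. Cd160 was lower in each KO library by less than 1 on the log2 scale, and Cd244a and Btla overlapped between genotypes. No receptor was called without WT replicate 1 or 2 or without KO replicate 1 or 3, Lag3 alone without KO replicate 2, and 3 receptors without WT replicate 3.

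In the HP1γ line the values ran in the opposite direction. Lag3 was at 58.9 and 21.2 CPM in the 2 KO libraries against 7.45, 3.11 and 2.61 CPM in WT (3.20 ± 0.60, edgeR adjusted p = 0.19), and Pdcd1 at 557 and 179 CPM against 86.3, 60.8 and 32.7 CPM (2.63 ± 0.57, edgeR adjusted p = 0.21). Havcr2 stood at 104 and 17.4 CPM against 11, 9.14 and 5.13 CPM (2.87 ± 0.72), Tigit at 199 and 82.6 CPM against 55.9, 30.7 and 27.6 CPM (1.90 ± 0.45) and Ctla4 at 690 and 303 CPM against 285, 169 and 218 CPM (1.16 ± 0.38), with edgeR adjusted p = 0.24, 0.22 and 0.32. All but Cd160 had both KO libraries above all 3 WT libraries, that is 7 of the 8, against 14.9% of tested genes. EdgeR called 0 receptors and 0.0% of tested genes, with 6 receptors and 2028 of 17177 tested genes at an unadjusted p under 0.05. DESeq2 called Lag3, Pdcd1 and Tigit and 2.11% of 28715 genes, a set not filtered for low counts. The same 3 were called by edgeR when all libraries of the line shared 1 estimate of the spread (adjusted p = 0.044, 0.038 and 0.017). The 0.0% above belongs to the separate fit, and the share of all genes called in the shared fit is not given here. Without KO replicate 2, which leaves replicate 1 as the lone KO library assumed to vary like the WT libraries, Havcr2 was called.

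A test of the difference between the deletion effects of the lines in Treg-exposed Tconv called 5 of the 8 receptors, where 2.72% of tested genes were called and 1.78% were lower. The HP1α effect minus the HP1γ effect was -6.44 ± 0.74 for Lag3, -4.96 ± 0.79 for Havcr2, -4.47 ± 0.67 for Pdcd1, -3.47 ± 0.64 for Tigit and -2.40 ± 0.46 for Ctla4 (edgeR adjusted p = 0.0053, 0.015, 0.014, 0.023 and 0.026). Cd244a, Cd160 and Btla were not called. The count was 3 without HP1α KO replicate 1 or without HP1γ WT replicate 3, 2 without HP1γ KO replicate 1 or HP1γ WT replicate 2, and 1 without HP1α KO replicate 3, and Lag3 was called in all 11 fits that left out a library. Tigit was lost in 6 of the 11 and Ctla4 in 5. The Ctla4 call was also lost with all libraries of both lines in 1 fit (edgeR adjusted p = 0.11), and the Tigit call without the filter on low counts (edgeR adjusted p = 0.072). The labels do not say whether the lines were assayed together or at which Treg ratio, so line, experiment and Treg ratio cannot be told apart. With the left-out HP1γ KO library put back, the 5 differences were between -8.79 and -1.96 and none was called (edgeR adjusted p = 0.053 to 0.36).

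**Figure D3:**
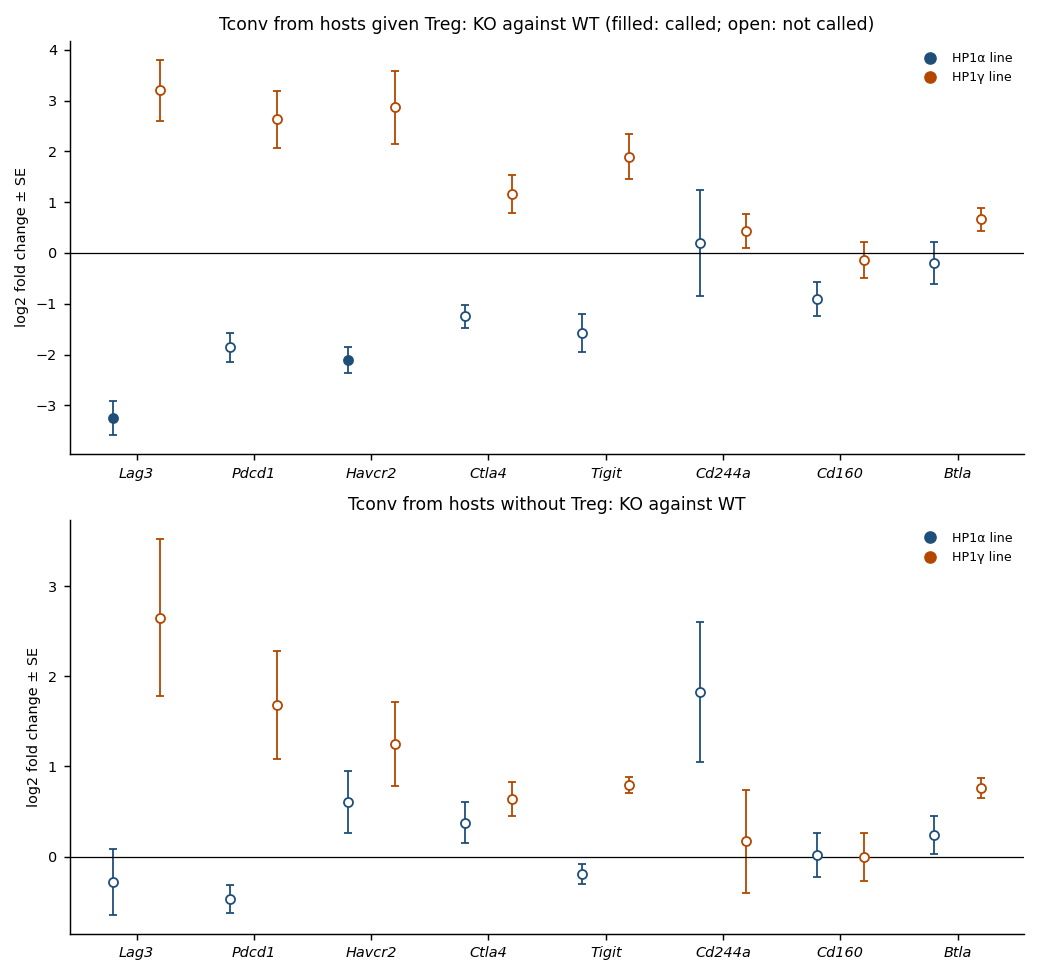
Log2 fold changes of KO against WT with standard errors for the 8 receptors, in Tconv from hosts given Treg in the upper panel and from hosts without Treg in the lower panel, with the HP1α line in blue and the HP1γ line in orange; filled points were called by edgeR. With Treg the values of Lag3 were -3.25 and 3.20 in the HP1α and HP1γ lines, and the filled points are Lag3 and Havcr2 of the HP1α line.

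Without Treg neither deletion gave a call. In HP1α Tconv 1 of the 8 receptors, Pdcd1, had an unadjusted edgeR p under 0.05, as did 1324 of 15521 tested genes. It was at 29, 35 and 31.7 CPM in KO against 54.7, 42.8 and 35.6 CPM in WT. DESeq2 called 0 receptors, where edgeR called 0.103% and DESeq2 0.703% of tested genes. Cd244a had 1.82 ± 0.78 with overlapping libraries (edgeR adjusted p = 0.59). In HP1γ Tconv edgeR and DESeq2 called 0 receptors, where edgeR called 0.0437% and DESeq2 0.902% of tested genes. An unadjusted edgeR p under 0.05 was found for 6 receptors and for 1349 of 16015 tested genes. Lag3 was at 2.04, 15.4 and 15 CPM in HP1γ KO against 0.884, 1.15 and 3.18 CPM in WT (2.65 ± 0.87, edgeR adjusted p = 0.47), Pdcd1 at 44.6, 172 and 95.4 CPM against 18.3, 26.4 and 53.5 CPM (1.68 ± 0.60), and Havcr2 at 10.8, 39.1 and 30.3 CPM against 8.46, 11.8 and 13.8 CPM (1.25 ± 0.46). In each of these 3 genes KO replicate 1 fell within the WT range. Same-numbered libraries correlated in this comparison, and KO was above WT in all 3 of these pairs for each of the 3 genes. How many of all tested genes had KO above WT in all 3 pairs was not counted, so this is only described. Ctla4, Tigit and Btla were higher in every KO library than in every WT library, a separation that 6.88% of tested genes showed, by less than 1 on the log2 scale, and Tigit was at 52.4, 58.1 and 55.2 CPM against 32.8, 32.5 and 31.5 CPM. The difference between the lines in Tconv without Treg called 0 of the 8 by edgeR and by DESeq2, against 0.0118% and 0.425% of tested genes. An unadjusted edgeR p under 0.05 was found for 3 receptors and for 1383 of 16979 tested genes.

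In naive cells Lag3, Havcr2 and Cd244a were too low to be tested. None of the 5 others was called between KO and WT in either line by edgeR or DESeq2. EdgeR called 0.0% of tested genes in the HP1α line and 0.00669% in the HP1γ line, and DESeq2 0.0512% and 0.135%. None of the 5 had an unadjusted edgeR p under 0.05. Of all tested genes, 291 of 15549 had 1 in the HP1α line and 863 of 14939 in the HP1γ line. Btla was at 106, 91.5 and 99.1 CPM in HP1α KO and 87.6, 95.8 and 106 CPM in WT, and at 76.3, 68.1 and 93.9 CPM in HP1γ KO and 78.5, 55.8 and 77.8 CPM in WT.

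Markers of other T cell states also differed between some of these groups, not always where the receptors did. In bulk RNA a change in the share of cells of a type and a change in RNA per cell cannot be told apart. The summed level of 5 follicular helper (Tfh) markers, 4 or 5 of them at 1 CPM or more in each host group, was 181 to 608 CPM in Treg-exposed HP1α WT Tconv, 67.4 to 234 CPM in HP1α KO, 35.2 to 88.6 CPM in HP1γ WT and 272 to 569 CPM in HP1γ KO, and 23.5 to 48.6 CPM in HP1α WT Tconv without Treg. In HP1γ Tconv without Treg it was 57.1, 151 and 119 CPM in KO against 35.7, 19.8 and 34.7 CPM in WT. Among the Treg-exposed HP1α WT libraries Pdcd1 (548, 472 and 266 CPM) had the order of this sum (608, 565 and 181 CPM), whereas Lag3 (47.1, 55.1 and 67.5 CPM) and Ctla4 (296, 340 and 372 CPM) had the opposite order. The sum of 8 Treg markers was 906 to 1069 CPM in Treg-exposed HP1α WT Tconv, 418 to 653 CPM in HP1α KO, 386 to 472 CPM in HP1γ WT and 580 and 893 CPM in HP1γ KO. Without Treg this sum was 419 to 561 CPM in HP1α WT and 465 to 534 CPM in HP1α KO. In the HP1γ line without Treg it was 382 to 504 CPM in WT and 394 to 580 CPM in KO. Foxp3 itself, the defining Treg gene, was at 13.5, 69.2 and 18.1 CPM in Treg-exposed HP1α WT, 8.57, 34.8 and 16.3 CPM in HP1α KO, 3.37 to 4.56 CPM in HP1γ WT and 8.46 and 11.2 CPM in HP1γ KO, and at 4.40 to 12.1 CPM in HP1α WT Tconv without Treg. Of the same list, Ikzf2 was at 155 to 326 CPM in HP1α WT with Treg and 9.56 to 25.7 CPM without. Il2ra went the other way, at 10.7 to 27.8 CPM with Treg and 39.0 to 42.1 CPM without. With Treg, Il2ra was at 13.6 and 21.9 CPM in HP1γ KO and 18.2 to 41.4 CPM in HP1γ WT. In HP1α KO the Foxp3-rich replicate 2 had the highest Pdcd1, Ctla4, Tigit, Cd160 and Btla of its group and the lowest Lag3, Havcr2 and Cd244a. The part of these markers in the receptor results was not tested.

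Myeloid and erythroid markers were higher in HP1α KO than in WT libraries of host Tconv. The myeloid 10-gene sum was 471, 177 and 591 CPM in Treg-exposed HP1α KO libraries against 32.3, 36 and 70.8 CPM in WT, and 79.5, 16.3 and 213 CPM in KO Tconv without Treg against 8.35 to 10.2 CPM in WT, with Lyz2 and Csf1r, which define such cells, at 27.8 to 154 and 8.20 to 56.4 CPM in Treg-exposed KO. Cd244a, which myeloid and NK cells also carry, was at 7.92, 0.224 and 6.11 CPM in those KO libraries and at 3.09, 1.72 and 7.35 CPM in WT, and its lowest library was the KO library with the lowest myeloid sum. The sum of 6 erythroid markers was 524, 102 and 625 CPM in Treg-exposed HP1α KO against 2.44, 3.27 and 42.9 CPM in WT, and 85.4, 23.5 and 690 CPM in KO Tconv without Treg against 1.90 to 3.17 CPM in WT. In the HP1γ line it was highest in replicate 1 of each host group, at 5407 CPM in Treg-exposed KO, 3122 CPM in Treg-exposed WT, 3079 CPM in KO and 4470 CPM in WT without Treg, against 66.6 to 276 CPM in the other libraries without Treg and 99.0 to 181 CPM in the others with Treg. Replicate 1 of Treg-exposed HP1γ KO had the higher Lag3, Pdcd1, Havcr2, Ctla4 and Tigit of its group, and replicate 1 of Treg-exposed HP1γ WT had the highest of each within its own. In HP1γ KO without Treg, replicate 1 had the lowest Lag3, Pdcd1, Havcr2 and Tigit. In the Treg-exposed HP1γ groups the myeloid sum was 93.5 and 235 CPM in KO and 111 to 119 CPM in WT. The sum of 6 CD8 T and NK cell markers was 27.1 to 77.1 CPM in Treg-exposed HP1α WT and 8.76 to 23.8 CPM in KO, with Cd8a at or below 1.42 CPM in both. In the WT library at 77.1 CPM, replicate 3, Cd8a, Cd8b1 and Ncr1 were at 0.026, 6.41 and 0.026 CPM. Most of that sum thus came from the NK receptor genes Klrb1c, Klre1 and Klra8. The part of all these other-cell markers in the receptor results was not tested.

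**Figure D4:**
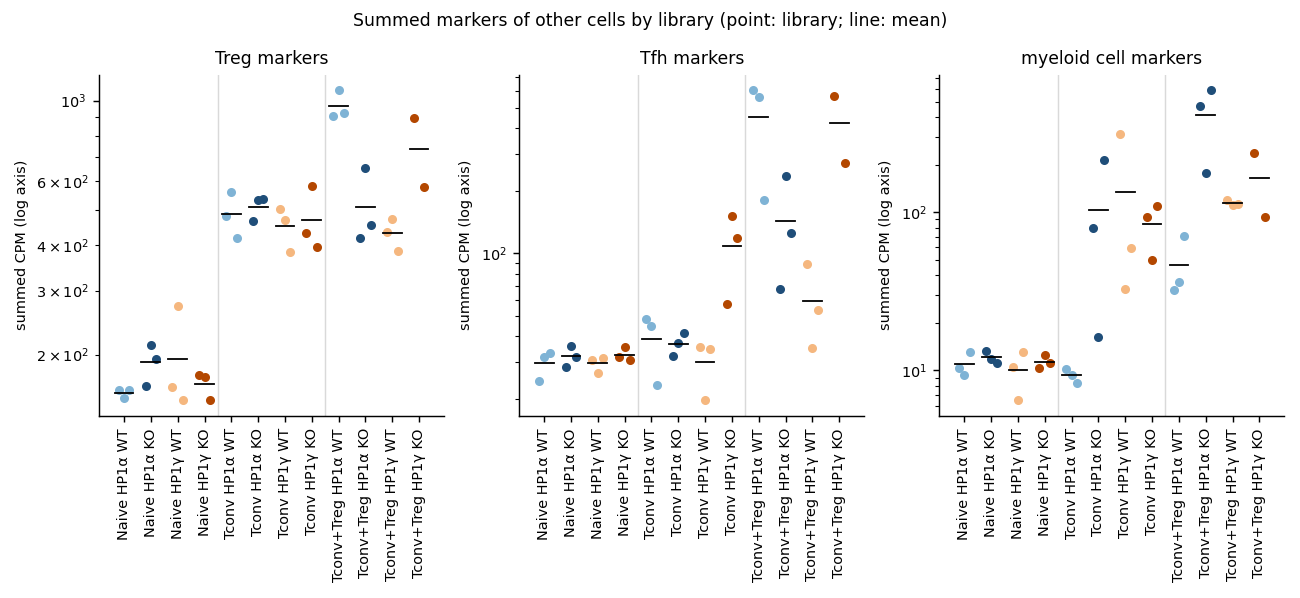
Summed CPM of 8 Treg, 5 Tfh and 10 myeloid cell markers in each library on log axes; points are libraries, black lines are group means, and colours are those of the receptor plot. The Tfh sum is high in Treg-exposed HP1α WT (181 to 608 CPM) and HP1γ KO (272 and 569 CPM), and the myeloid sum in Treg-exposed HP1α KO (177 to 591 CPM).

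The other genes of the pathway were given as fixed lists. Of 20 transcription factors known to act on these genes, 9 rose and 2 fell with Treg in HP1α WT cells, where 3.54% of all tested genes were higher and 5.96% were called in either direction, with a median log2 fold change of 1.05 against 0.03 over all genes. Those with the largest changes were Tox (4.08 ± 0.37), a factor of exhausted T cells, Ikzf2 (3.82 ± 0.47), the gene for Helios and also 1 of the Treg markers, Eomes (3.52 ± 0.45) and the orphan receptor gene Nr4a2 (3.46). Tbx21, which directs Th1 differentiation, fell by 1.71, and Rbpj, which mediates Notch signalling, fell by 1.23. In HP1α KO cells 2 of the 20 rose with Treg, Tox (2.11) and Nr4a2 (1.97), against 0.18% of tested genes. In the HP1γ line edgeR called 0 in either genotype, against 0.0126% of tested genes in WT and 0.0% in KO. Between the lines the deletion effects on Treg-exposed Tconv differed for 5 of the 20, against 2.72% of tested genes, which were Tox (-4.37), Ikzf2 (-3.97), Bcl6 (-2.64), Batf (-2.34) and Maf (-2.25), each lower in the HP1α line.

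Other inhibitory receptors were not called higher with Treg. Of 9 tested with Treg in HP1α WT cells, 0 rose and 3 fell, and the median of the 9 was -0.59. The 3 were Lilrb4a (-1.93), Lair1 (-1.71) and Klrg1 (-1.29), all with intracellular inhibitory motifs. In this comparison 3.54% of all tested genes were higher, and 379 of 15627 were lower. Among 13 relatives and costimulatory counterparts, 2 rose, Crtam (2.01) and Slamf6 (1.39), and 3 fell. These were Cd226 (-2.43) and Cd96 (-1.56), whose proteins share the ligand PVR with TIGIT, and Tnfsf14 (-1.02), whose protein LIGHT binds the same receptor as BTLA and CD160. In that comparison Tigit itself rose by 2.04. Of 12 signalling proteins, Sh2d1a (1.97), the SLAM family adaptor SAP, and Ptpn11 (1.55), the phosphatase SHP-2 recruited by PD-1, rose, and Trat1 (-1.78), a partner of CTLA-4 in its transport to the surface, fell. None of 9 ligands was called in that comparison. For the deletion effects in Treg-exposed Tconv, edgeR called 0 genes of these 5 lists in either line. It called 0.123% of all tested genes in the HP1α line and 0.0% in the HP1γ line. The difference between the lines was called in 2 of 12 ligands (Pdcd1lg2 at -1.61, Pvr at 1.36) and 2 of 13 signalling proteins (Sh2d1a at -2.36, Ptpn11 at -2.00). It was called in 1 of 15 relatives (Cd96 at 1.85) and 0 of 10 other inhibitory receptors, against 2.72% of all tested genes. Against naive cells, HP1α WT Tconv had 5 of 10 ligands, 5 of 13 relatives, 5 of 9 other inhibitory receptors and 8 of 20 transcription factors called higher and 1, 0, 2 and 4 called lower, and 0 of 12 signalling proteins in either direction, where 12.9% of tested genes were higher and 10.2% lower.

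The nearest coding gene on each side of a receptor, among those tested in any comparison, was examined because several of these genes lie in clusters. With Treg in HP1α WT cells, Ptms, which lies 1256 bases from Lag3, rose by 2.91 (edgeR adjusted p = 0.0062), while Cd4, 6562 bases away on the other side, had -0.01 (edgeR adjusted p = 0.98). Med7, 6244 bases from Havcr2, rose by 1.37 (edgeR adjusted p = 0.0058), Zbtb20, 6135 bases from Tigit, by 1.97 (edgeR adjusted p = 0.0056), and Cd200, 124437 bases from Btla, by 3.20 (edgeR adjusted p = 0.0046), more than Btla itself. Around Ctla4, Cd28 (0.13) and Icos (0.60) were not called, nor were the tested neighbours of Pdcd1, Cd244a and Cd160. Neu4, 9971 bases from Pdcd1, and Timd5 beside Havcr2 were too low to be tested there. The tested neighbour of Pdcd1 was thus Fam174a alone, which lies 1261031 bases away. The difference between the lines in the deletion effect on Treg-exposed cells was called for Ptms (-4.01), Cd200 (-3.74) and Med7 (-2.09), and not for Zbtb20 (-1.08). The libraries were not made with a kit that marks strand, so reads of overlapping genes could not be told apart, and transcripts that run past a gene's end would also be counted where a neighbour is annotated.

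**Figure D5:**
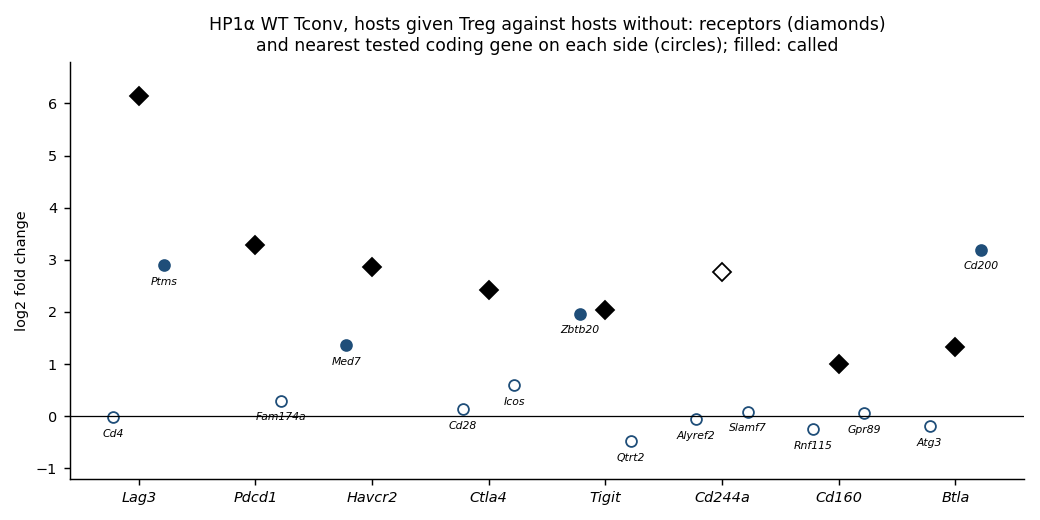
Log2 fold changes in HP1α WT Tconv from hosts with Treg against hosts without Treg for the 8 receptors (diamonds) and their neighbouring coding genes that were tested there (circles); filled symbols were called by edgeR. Of the 14 neighbours drawn, Ptms (2.91), Med7 (1.37), Zbtb20 (1.97) and Cd200 (3.20) are filled.

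The receptors were alike in their levels over the 12 group means of log2 CPM, as a description with no test, since all points share libraries, depth and the contrast between naive and host cells. The correlation of Lag3 with Pdcd1 was 0.98 and that of Havcr2 with Cd160 was also 0.98, whereas Btla had between -0.14 and 0.30 with the 7 others. The search covered 10198 genes with at least 5 CPM in a group mean. It left out predicted genes, RIKEN clones, genes without a symbol, and immunoglobulin and T cell receptor segments. Among those searched, the genes most like Lag3 were Il10 (0.99 over 12 groups and 0.97 over 35 libraries), which encodes an inhibitory cytokine, Sostdc1 (0.99) and Lpar3 (0.99). Those of Pdcd1 were Angptl2 (0.997), Cacna1s (0.99) and Setbp1 (0.99), those of Havcr2 were Vsig10l (0.997), Atxn1 (0.996) and Farp1 (0.996), and those of Tigit were Asf1b, Bcl2a1d and Stk39 (0.99 each). Ctla4 was nearest to Rgs16 (0.98), Perp (0.98) and Cxcl10 (0.98), and Cd160 to the cell cycle gene Cdk1, Rad51ap1 and the NK receptor gene Klrb1c (0.99 each). Cd244a was nearest to Spock2 (0.98), to Fcer1g (0.97), 1 of the 10 myeloid markers, and to B4galt4 (0.97), with 0.73, 0.85 and 0.82 over the 35 libraries. Btla had the least alike genes, Ppcdc (0.93), Usp6nl (0.92) and Timp2 (0.92).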

How the data were processed

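Poly(A) RNA of mouse CD4+ T cells was sequenced in 36 libraries, and groups came from the sample titles. The deposited table holds estimated counts per gene, made by the authors from STAR alignments to GRCm39 with Salmon in the nf-core/rnaseq pipeline, and 0 of its columns of per-sample values went unused. These values were rounded to whole counts. The members and gene lists were chosen with earlier results of these data known. The authors excluded replicate 3 of Treg-exposed HP1γ KO for abnormal GC content, exonic share and end bias, and it entered only an alternative.

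Each comparison was fitted on its own groups with edgeR 4.0.16 (R 4.3.3; filterByExpr, TMM scaling, robust quasi-likelihood test), and p-values were adjusted by Benjamini-Hochberg over all tested genes. A call needed an adjusted p under 0.05 and a log2 fold change above 1 in size, and standard errors were derived from the F statistic. The 19 comparisons included interactions and differences between lines. Alternatives were DESeq2 1.42.0 at the same thresholds, RLE in place of TMM, calls by adjusted p alone, testing without the low-count filter, a shared fit over every library of the line or lines, a replicate block, adding back the excluded library, and leaving out each library in turn. DESeq2 was run without the low-count filter, and its shares are over all genes to which it gave a p-value. CPM used TMM over 35 libraries. Depth was 37029477 to 63042165 counts, and counting error alone sets the floor of 3 counts. Where the labels do not name separate animals, p-values measure the spread between these libraries, which may be technical.

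Same-numbered libraries correlated above 0.1 in every pair, in their deviations from the group means, for KO against WT in HP1α naive cells (0.29 to 0.65) and in HP1γ Tconv (0.11 to 0.43), and not throughout in the other comparisons of 3 pairs. Members were all named, up to 4 called genes of a list were named by size of change in a comparison, neighbours were the nearest coding genes in GENCODE vM39 that were tested in any comparison, and likeness was Pearson's correlation over the 12 group means of log2 CPM. Genes in counts of 5 or fewer beyond that rule were named after their values were seen. The fits were tested on simulated data.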

Additional observations from a re-analysis of the deposited data

Results flagged for a closer look

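Effects that differed between genotypes or lines in a direct test were Lag3 in the interaction of genotype and Treg of the HP1α line, at -2.95 on the log2 scale, and 9 differences between the lines. The deletion effects on Treg-exposed Tconv, HP1α minus HP1γ, differed by -6.44 for Lag3, -4.47 for Pdcd1, -4.96 for Havcr2, -2.40 for Ctla4 and -3.47 for Tigit. The Treg effects of WT cells differed by 4.81 for Lag3, 3.28 for Havcr2, 1.65 for Ctla4 and 1.79 for Tigit, and share the Treg-exposed WT libraries with the former. Their spread, adjusted p-values and the libraries they rest on stand with each comparison in the results.

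The HP1γ KO library left out for its quality (36961911 counts) was set beside the highest of the 3 HP1γ WT libraries exposed to Treg. How many of all genes lay above the highest WT library in it was not counted, so its values are only described. Its CPM were divided by its total count alone, whereas those of WT were also TMM-scaled, so small gaps such as that of Havcr2 are uncertain. Its Lag3 was 190.2 CPM against at most 7.45 CPM in WT, its Pdcd1 541 CPM against 86.3 CPM, its Havcr2 15.8 CPM against 11 CPM and its Tigit 98.4 CPM against 55.9 CPM. Ctla4 (40.0 CPM), Cd160 (19.02 CPM), Btla (5.06 CPM) and Cd244a (0.0541 CPM) lay below the highest WT library in it, and the library's quality and its receptor levels cannot be told apart.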

How the results depend on the processing

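Of 83 fold changes that were called by either tool or above 1 in size, DESeq2 left 68 on the same side of the threshold, RLE factors 83, no filter 75, and 1 fit over all libraries 74. DESeq2 called 2 receptors for the Treg effect of HP1γ KO, 5 and 3 for KO against WT with Treg in the HP1α and HP1γ lines, and 4 for the HP1α interaction. Without the filter these were 4 (HP1α KO against WT with Treg) and 3 (HP1α interaction), and 1 (Tigit) for the line difference without Treg. With all libraries in 1 fit 3 receptors were called for HP1γ KO against WT with Treg, Pdcd1 was called for HP1α KO against WT with Treg and for the line difference of Treg effects, and 4 calls were lost, which were Tigit (Treg effect, HP1α WT), Ctla4 (line difference of deletion effects) and Ctla4 and Tigit (line difference of Treg effects). With the left-out library 0 were called for the line difference of deletion effects. Without 1 library the counts ran from 0 to 2 and 0 to 1 for the Treg effect of HP1α KO and HP1γ KO, 0 to 3 and 0 to 1 for KO against WT with Treg in the HP1α and HP1γ lines, 0 to 3 for the HP1α interaction, 1 to 5 for the line difference of deletion effects with Treg and 2 to 4 for that of Treg effects. Havcr2 changed sign without replicate 1 of Treg-exposed HP1γ KO, over ranges of -0.59 to 1.96 for the Treg effect of HP1γ KO and -0.18 to 2.40 for the HP1γ interaction. These causes were not tested. The share of all genes called is not given for any alternative but DESeq2, so those counts have no background beside them.

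With the replicate block 0 receptors were called for KO against WT in Treg-exposed HP1α cells (Lag3 -3.31, Havcr2 -2.16), 0 for the HP1α interaction (Lag3 -2.94) and 1 (Lag3, 2.90) for KO against WT in Treg-exposed HP1γ cells. Ctla4 was called at 2.55 for HP1α KO Tconv against naive cells, and no other call of these 83 changed. Same-numbered libraries did not all correlate above 0.1 in the HP1α comparisons, and in the HP1γ comparison, with 2 pairs, they did (0.20 and 0.38), which is too few pairs to establish a pairing.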
